A study of Mus musculus with 6 samples.

Results

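The genes that sense and mend DNA double-strand breaks and interstrand crosslinks were followed in B16F10 tumors from the hind footpad and from the flank skin. B16F10 is a mouse melanoma cell line. The 41 genes were taken by name from the deposited table of 45777 genes, 1 row each, and all 41 passed the filter on low counts that left 17210 genes for testing. Total RNA of 3 footpad tumors and 3 flank skin tumors had been sequenced, with 1 library per tumor. The labels give both groups the same host, Foxn1-/- mice at an age of 8 weeks, whereas the text of the study describes such grafts in C57BL/6J as well as in Foxn1-null mice and names no host for the sequenced tumors. Foxn1-/- mice lack a working thymus and with it mature T cells. The labels describe RNA of excised tumors, whereas the methods speak of isolated tumor cells and name no way of parting them from host cells. In such bulk libraries fewer cells of a type and less RNA per cell cannot be told apart. Grafts at both sites were placed in the same animals in the methods, so the 6 tumors may come from 3 mice, but the labels tie no tumor to a mouse, and the p-values measure the spread between these 6 tumors.

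A double-strand break is bound within moments by the MRE11-RAD50-NBN complex, which activates the kinase ATM, while single-stranded DNA next to broken or stalled replication forks activates ATR. The break is then mended either by non-homologous end joining, in which the Ku proteins and DNA-PK hold the ends together for ligation, or, in S and G2 phase when a sister chromatid is at hand, by homologous recombination, in which the ends are cut back and strand exchange with the sister is started with the help of BRCA2. The Fanconi anemia proteins detect crosslinks between the strands and pass them to the recombination machinery. Many of these genes are transcribed mostly in dividing cells, and melanoma cells of the foot were examined for DNA damage in the study from which the tumors come.

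The repair genes lay, as a group, somewhat lower in footpad tumors, and only Chek2 passed the test. The log2 fold change of footpad against flank was below 0 for 37 of the 41 genes, against 50.3% of all genes tested, and its median was -0.41, against -0.0042 over all genes. With edgeR's quasi-likelihood test and p-values adjusted by the Benjamini-Hochberg method over all 17210 genes, 1 repair gene was called lower at an adjusted p under 0.05, against 1.44% of all genes, and 0 were called higher, against 3.43%. Chek2 did not reach the fold change of 2 that the study also asked for, which left 0 genes. At an unadjusted p under 0.05, 17 of the 41 were lower, against 10.5% of all genes, and 0 were higher, against 14.8%. DESeq2, another test on the counts, called 7 lower, namely Chek1, Chek2, Nbn, Rbbp8, Bard1, Rad54b and Fanci, against 6.07% of all genes, and 0 higher, against 9.79%. All 3 footpad tumors lay below all 3 flank tumors for 15 of the 41 genes, against 14.9% of all genes, and above them for 1, Dclre1c, against 17.5%. Single tumors moved the number of calls, over all genes as well as over the repair genes. Without footpad 1, footpad 3, flank 2 or flank 3, 0 repair genes were called lower, but in these fits only 0.028%, 0%, 0.619% and 0.0559% of all genes were. Without flank 1 the 1 call was Topbp1, against 0.653% of all genes, and without footpad 2 the 4 calls were Chek2, Brca1, Rad54b and Fanci, against 1.55%.

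**Figure D1:**
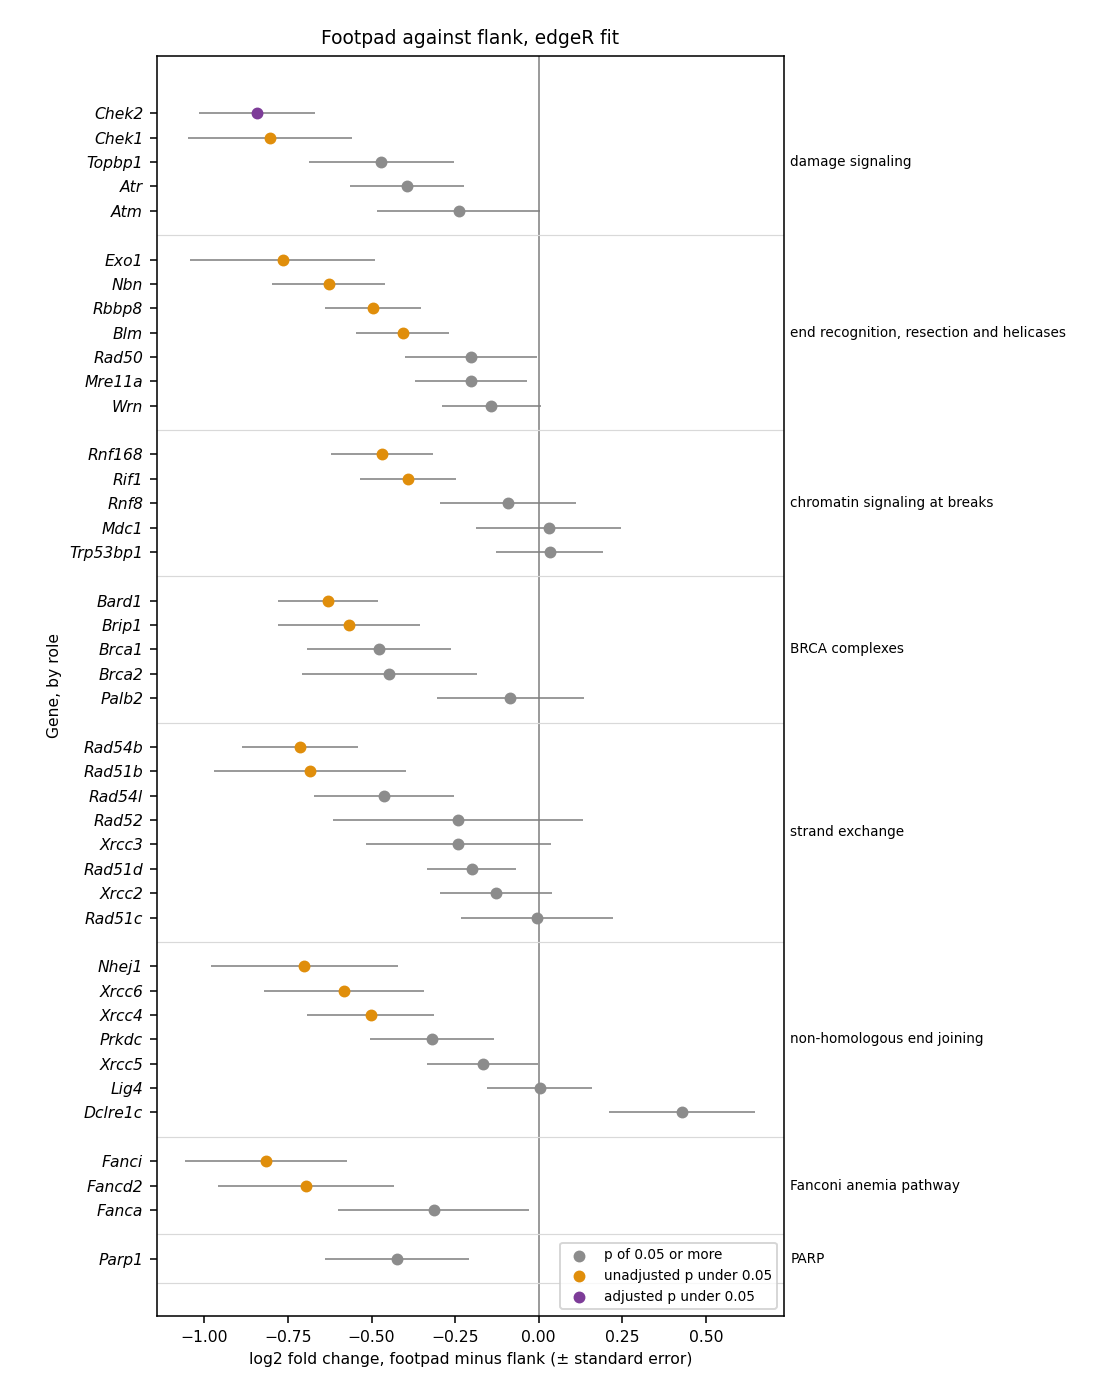
Log2 fold change of each of the 41 repair genes, footpad minus flank (horizontal axis), with its standard error as a bar and the genes grouped by role (vertical axis). Purple marks Chek2, the gene with an adjusted p under 0.05, orange the other genes with an unadjusted p under 0.05 and gray the rest, and 37 of 41 points lie left of 0.

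Summed over the 41 genes, the level was 1685, 1959 and 1869 CPM in footpad tumors 1, 2 and 3, and 1952, 2666 and 2565 CPM in flank tumors 1, 2 and 3, where CPM expresses a count relative to its TMM-scaled library. The sites overlapped, because flank 1 lay just below footpad 2. The mean was 1838 ± 140 CPM in the footpad and 2394 ± 386 CPM in the flank (SD, n = 3), so that the footpad sum was 76.8% of the flank sum. Flank 1 had the lowest level of the flank tumors in 29 of the 41 genes, and in 21 genes it was no higher than the highest footpad tumor. Without flank 1 the median log2 fold change was -0.49, and 30 of the 41 genes had every footpad tumor below both remaining flank tumors, against 22.1% of all genes in that comparison. Footpad 1 had the lowest level of all 6 tumors in 22 genes, and without it the median was -0.34.

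**Figure D2:**
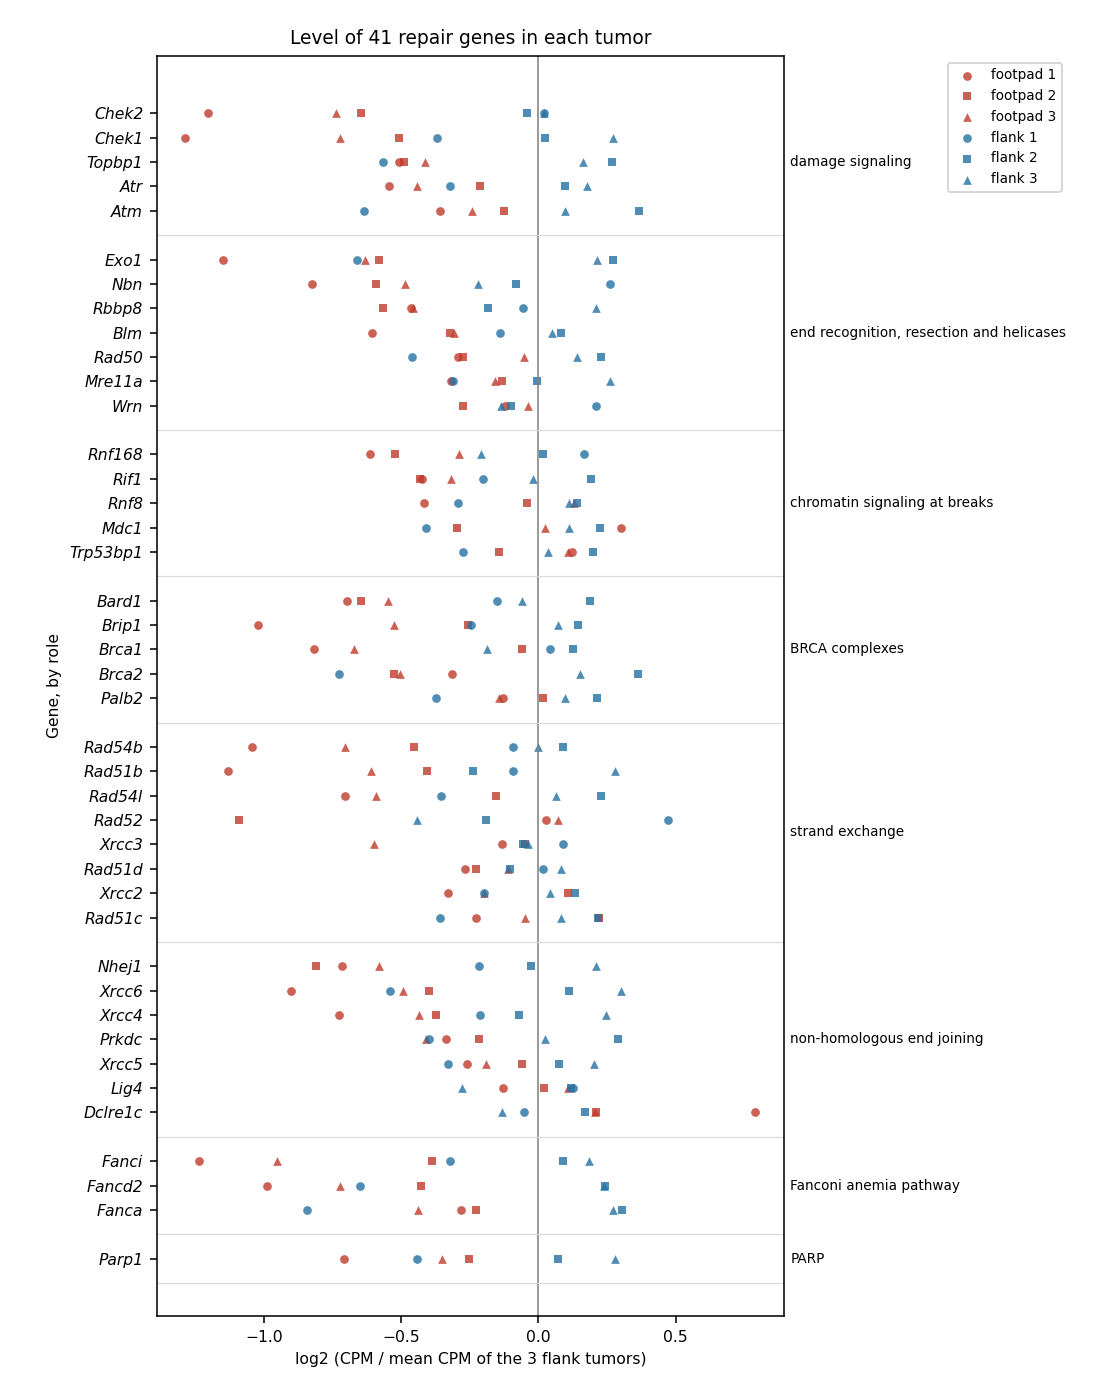
Level of each of the 41 repair genes in each tumor as log2 of its CPM over the mean CPM of the 3 flank tumors (horizontal axis), by role (vertical axis), with footpad tumors in red, flank tumors in blue and a marker shape for each replicate. Flank 1, the blue circle, lies among the red markers in many genes, whereas for Chek2, Bard1 and Rad54b the colors are apart.

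Several repair genes carry the letters bound by E2F factors, which switch on genes for DNA replication, near a start site. RefSeq start sites with the 250 bases before and 50 bases after them were at hand for 30 of the 41 genes (GRCm38.p6). TTTGGCGC, TTTGCCGC, TTTCCCGC or TTTCGCGC was found on either strand in 7 of the 30, or 23.3%, against 4.37% of the 12437 tested genes with such a window and 2.26% of all 32851 windows. The 8 matches in these 7 genes are shown with the bases around them, each read on the strand on which the match begins with TTT, with the match in capitals.
Chek2: cgacgtcttggTTTCCCGCggctaatcccg
Topbp1: cgggaaccgacTTTCGCGCcaaccgagcgg
Mdc1: tcttcagcctgTTTCCCGCcggtagccgca
Bard1: ccgccgctcagTTTCCCGCtcaggaagttt
Brca2: gtgtgtgtctgTTTCCCGCtgtggcctaaa
Rad51c, first: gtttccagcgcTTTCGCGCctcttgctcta
Rad51c, second: gaccccttgctTTTCCCGCcctcgcggggg
Xrcc6: gcccactcgcaTTTCCCGCttccaccccct
The Chek2 stretch is chr5:110839820-110839849 on the minus strand, and its match begins at -152 from the start site on the gene's own strand. That of Topbp1 is chr9:103305187-103305216, minus strand, at -129, that of Mdc1 chr17:35841471-35841500, plus strand, at -16, and that of Bard1 chr1:71103163-71103192, minus strand, at -209. That of Brca2 is chr5:150522442-150522471, minus strand, at -168, and that of Xrcc6 is chr15:82016312-82016341, minus strand, at -46. The 2 of Rad51c are chr11:87404477-87404506, minus strand, at 11 within the transcript, and chr11:87404941-87404970, plus strand, at -5 from another start site. The start sites used for Chek2, Topbp1, Brca2 and Xrcc6 lie inside the annotated gene, and so do their matches. The matches of Mdc1 and Bard1 lie before the first base of the annotated gene. For Rad51c the first match lies inside the annotated gene and the second partly inside it. A match is a description of the letters and says nothing of binding in these tumors. The genes with a match did not move as 1 group. Their log2 fold changes ran from -0.84 for Chek2 to 0.03 for Mdc1, with a median of -0.47 and 6 of 7 below 0, whereas the 23 genes with a window and no match had a median of -0.39 and 20 below 0. The letters TTTGAA, the core of the element found in genes of late cell cycle, were in 10% of the 30 genes against 15.1% of tested genes, and CCAAT was in 53.3% against 43.0%, both read on either strand.

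Among the signaling genes, both checkpoint kinases stood low in the footpad. Chek2 (gene ID 50883, chr5:110839800-110874140, GRCm38) encodes CHK2, the kinase that carries the ATM signal to the cell cycle and to p53. It was at 13.0, 19.1 and 18.0 CPM in footpad tumors 1, 2 and 3 and at 30.4, 29.2 and 30.4 CPM in flank tumors 1, 2 and 3. The flank tumors agreed closely with each other, and each footpad tumor was below all of them. The log2 fold change was -0.84 (SE 0.17, edgeR adjusted p = 0.040), or 55.8% of the flank mean. Over the alternative settings its adjusted p ran from 0.000511 with DESeq2 to 0.139, and it stayed under 0.05 in 5 of 15.

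Chek1 (gene ID 12649) encodes CHK1, the corresponding kinase below ATR, which slows cells with incomplete replication. Its level was 13.2, 22.7 and 19.5 CPM in the footpad and 25.0, 32.8 and 38.9 CPM in the flank. The sites did not overlap, but the tumors of each site were spread more widely than for Chek2. The log2 fold change of -0.80 (SE 0.25) did not pass (edgeR adjusted p = 0.098), although DESeq2 gave an adjusted p of 0.0224.

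The apical kinases themselves differed less. Atm was at 113, 133 and 122 CPM in the footpad and at 93.1, 187 and 155 CPM in the flank, where flank 1 was the lowest of all 6 tumors. Atr was at 59.0, 74.4 and 63.5 CPM in the footpad and at 68.9, 92.3 and 97.4 CPM in the flank, with footpad 2 above flank 1. The log2 fold changes were -0.24 (SE 0.24) for Atm and -0.39 (SE 0.17) for Atr. Topbp1, the scaffold that activates ATR, had a log2 fold change of -0.47, with a flank that ran from 112 CPM in flank 1 to 200 CPM in flank 2. It was the gene called without flank 1, when its log2 fold change was -0.69 (edgeR adjusted p = 0.0435). Topbp1 was called in 1 of 15 alternatives, and with another tumor left out its edgeR adjusted p reached 0.452.

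Of the genes that recognize and process the ends, the sites were apart for Nbn, Rbbp8 and Blm, and 0 of 7 passed the test. Nbn, the regulatory subunit of the complex that first binds a break, was at 34.3, 40.4 and 43.4 CPM in the footpad and at 72.9, 57.5 and 52.2 CPM in the flank. Here flank 1 was the highest tumor, unlike in most of the 41 genes. The log2 fold change was -0.63 (SE 0.17, edgeR adjusted p = 0.072). Its partners differed less, and their sites overlapped. Rad50, the long coiled-coil subunit, was at 91.9, 93.2 and 109 CPM in the footpad and at 81.9, 132 and 124 CPM in the flank, with flank 1 the lowest tumor. The log2 fold change was -0.20 for both Rad50 (SE 0.20) and the nuclease gene Mre11a (SE 0.17).

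Rbbp8 encodes CtIP, which starts the resection of the ends together with that complex. It was at 31.9, 29.8 and 32.1 CPM in the footpad and at 42.4, 38.7 and 51.0 CPM in the flank. The footpad tumors were within a narrow range, and the log2 fold change was -0.50 (SE 0.14, edgeR adjusted p = 0.086). Blm, the helicase mutated in Bloom syndrome, was at 30.4, 37.0 and 37.4 CPM in the footpad and at 42.0, 49.0 and 47.9 CPM in the flank, a log2 fold change of -0.41 (SE 0.14). Exo1, the nuclease that extends resection, had the lowest log2 fold change of this set, -0.77 (SE 0.28), but flank 1 with 19.5 CPM lay below footpad 2 and footpad 3. Wrn, a related helicase, was at -0.14 (SE 0.15).

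The proteins that mark chromatin around a break gave a divided picture. Rnf168, a ubiquitin ligase that modifies histone H2A, was at 40.0, 42.6 and 50.1 CPM in the footpad and at 68.7, 61.9 and 53.0 CPM in the flank. Rif1, which restrains resection, was at 140, 139 and 151 CPM in the footpad and at 164, 215 and 186 CPM in the flank. Each footpad tumor was below each flank tumor in both genes, with log2 fold changes of -0.47 (SE 0.15) and -0.39 (SE 0.14). Trp53bp1, the gene of 53BP1, through which Rif1 is recruited, was at 86.7, 72.0 and 85.7 CPM in the footpad and at 65.9, 91.4 and 81.6 CPM in the flank. Its sites overlapped fully. The log2 fold change was 0.03 (SE 0.16) for Trp53bp1, 0.03 (SE 0.22) for the scaffold Mdc1 and -0.09 (SE 0.20) for the ubiquitin ligase Rnf8, and each of these changed sign when single tumors were left out. In the same reads, H2afx, the gene of the histone H2AX that ATM phosphorylates around a break, was at 87.5, 168 and 83.6 CPM in the footpad and at 91.7, 162 and 203 CPM in the flank. The spread of H2afx within each site was wider than the difference between sites, and its log2 fold change was -0.43 (SE 0.36).

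Bard1 had the lowest log2 fold change of the BRCA genes. Its protein pairs with BRCA1 to form a ubiquitin ligase, and its level was 15.8, 16.4 and 17.5 CPM in the footpad and 23.1, 29.2 and 24.6 CPM in the flank. The sites were well apart and the footpad tumors nearly equal, with a log2 fold change of -0.63 (SE 0.15, edgeR adjusted p = 0.056). Brca1 itself was at 82.2, 139 and 91.0 CPM in the footpad and at 149, 158 and 127 CPM in the flank. Footpad 2 lay above flank 3, and the log2 fold change was -0.48 (SE 0.22). Without footpad 2 it was -0.75 (edgeR adjusted p = 0.0498). Brca1 was called in 1 of 15 alternatives, and with another tumor left out its edgeR adjusted p reached 0.480.

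Brca2, the mediator of strand exchange, was at 38.7, 33.4 and 33.9 CPM in the footpad and at 29.1, 61.9 and 53.5 CPM in the flank. Flank 1 was the lowest of all tumors, and the log2 fold change was -0.45 (SE 0.26). Brip1, a helicase bound to BRCA1, was at 30.3, 51.5 and 42.7 CPM in the footpad and at 51.9, 68.0 and 64.6 CPM in the flank, with footpad 2 just under flank 1. Its log2 fold change was -0.57 (SE 0.21), and that of Palb2, which bridges BRCA1 and BRCA2, was -0.08 (SE 0.22).

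The genes of strand exchange were mostly expressed at low levels and spread from lower to level. Rad54b, a motor protein of strand exchange, was at 18.6, 28.0 and 23.5 CPM in the footpad and at 36.0, 40.7 and 38.2 CPM in the flank. All footpad tumors lay below the flank tumors, with a log2 fold change of -0.71 (SE 0.17, edgeR adjusted p = 0.058). Its relative Rad54l had a log2 fold change of -0.46 (SE 0.21), with footpad 2 above flank 1.

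Rad51b, a member of a family of mediators of recombination, was at 2.51, 4.16 and 3.61 CPM in the footpad and at 5.17, 4.67 and 6.69 CPM in the flank. Rad51d was at 20.8, 21.4 and 23.2 CPM in the footpad and at 25.4, 23.3 and 26.6 CPM in the flank. Both were without overlap, though footpad 3 and flank 2 were nearly equal for Rad51d. The log2 fold changes were -0.68 (SE 0.29) for Rad51b and -0.20 (SE 0.13) for Rad51d. Xrcc2 was at -0.13 (SE 0.17), Xrcc3 at -0.24 (SE 0.28) and Rad51c at -0.01 (SE 0.23) on the log2 scale, with overlapping sites, and the sign of Rad51c turned under upper-quartile scaling. Rad52, which anneals single strands, was at -0.24 (SE 0.37), the widest standard error of the 41 genes.

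End joining held Dclre1c, the only one of the 41 genes whose footpad tumors all lay above the flank tumors. Dclre1c, the gene of Artemis, the nuclease that trims ends before ligation, was at 18.5, 12.3 and 12.3 CPM in the footpad and at 10.3, 12.0 and 9.73 CPM in the flank. Footpad 2 and footpad 3 were only slightly above flank 2, and the log2 fold change of 0.43 (SE 0.22) did not pass (edgeR adjusted p = 0.265). With library totals in place of TMM scaling the sites of Dclre1c overlapped. Dclre1c overlaps Suv39h2 in the annotation, and the strand setting of the counting is not given in the sources used here.

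The Ku genes encode the ring that slides onto broken ends. Xrcc5, the gene of Ku80, was at 95.9, 110 and 101 CPM in the footpad and at 91.4, 121 and 132 CPM in the flank. Xrcc6, the gene of Ku70, was at 42.5, 60.1 and 56.3 CPM in the footpad and at 54.5, 85.7 and 97.9 CPM in the flank. Flank 1 was below every footpad tumor for Xrcc5 and inside the footpad range for Xrcc6. The log2 fold changes were -0.17 (SE 0.17) for Xrcc5 and -0.58 (SE 0.24) for Xrcc6. Prkdc, the catalytic subunit of DNA-PK, was at 59.8, 65.0 and 56.8 CPM in the footpad and at 57.3, 92.4 and 76.8 CPM in the flank. Again only flank 1 was at the level of the footpad, and the log2 fold change was -0.32 (SE 0.18).

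Of the ligation genes, Xrcc4 and Nhej1 were lower in every footpad tumor and Lig4 was level. Xrcc4, the partner of the ligase, was at 10.7, 13.7 and 13.1 CPM in the footpad and at 15.3, 16.9 and 21.1 CPM in the flank. Nhej1, the gene of XLF, was at 1.73, 1.62 and 1.90 CPM in the footpad and at 2.45, 2.79 and 3.29 CPM in the flank. The log2 fold changes were -0.50 (SE 0.19) for Xrcc4 and -0.70 (SE 0.28) for Nhej1, neither past the adjusted test (edgeR adjusted p = 0.155 and 0.171). Lig4, the ligase itself, was at 28.3 CPM in both means, with a log2 fold change of 0.00 (SE 0.16).

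The 3 Fanconi anemia genes had the lowest median of the role groups with several genes, -0.70. FANCI and FANCD2 form the clamp that is ubiquitinated at a crosslink, and FANCA belongs to the complex that does so. Fanci was at 30.2, 54.4 and 36.7 CPM in the footpad and at 56.9, 75.9 and 80.9 CPM in the flank. Footpad 2 was just under flank 1, and the log2 fold change was -0.82 (SE 0.24, edgeR adjusted p = 0.091). Fancd2 had a log2 fold change of -0.70 (SE 0.26) and Fanca of -0.31 (SE 0.29), and in both flank 1 lay below at least 1 footpad tumor, for Fanca below all 3. Parp1, whose enzyme marks broken strands with ADP-ribose, was at 106, 145 and 135 CPM in the footpad and at 127, 182 and 210 CPM in the flank. Flank 1 was again inside the footpad range, and its log2 fold change was -0.42 (SE 0.22).

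On a scale corrected for transcript length, the FPKM deposited by the authors, the most abundant gene was Parp1 with a mean over all 6 tumors of 37.1 ± 10.8 (SD, n = 6) and the least abundant Xrcc3 with 0.967 ± 0.155, a 38.3-fold range. The median of the 41 gene means was 7.53 FPKM. Parp1 and Xrcc5, with 36.6 ± 6.08, were within each other's spread, as were most neighbors in the order, whereas Rad51b with 1.94 ± 0.609 lay above Xrcc3 by more than the SD of either. The Ku genes, Parp1, Topbp1, Rad50, Brca1 and Nbn led the order, and Bard1, Brca2, Dclre1c, Palb2, Nhej1, Rad51b, Rad51c, Rad51d and Xrcc3 closed it. On this scale, 8 of the 41 genes had every footpad tumor below every flank tumor, against 12.8% of all genes, and limma on log2(FPKM + 1) called 0 of the 41 lower, against 1.18% of all genes.

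**Figure D3:**
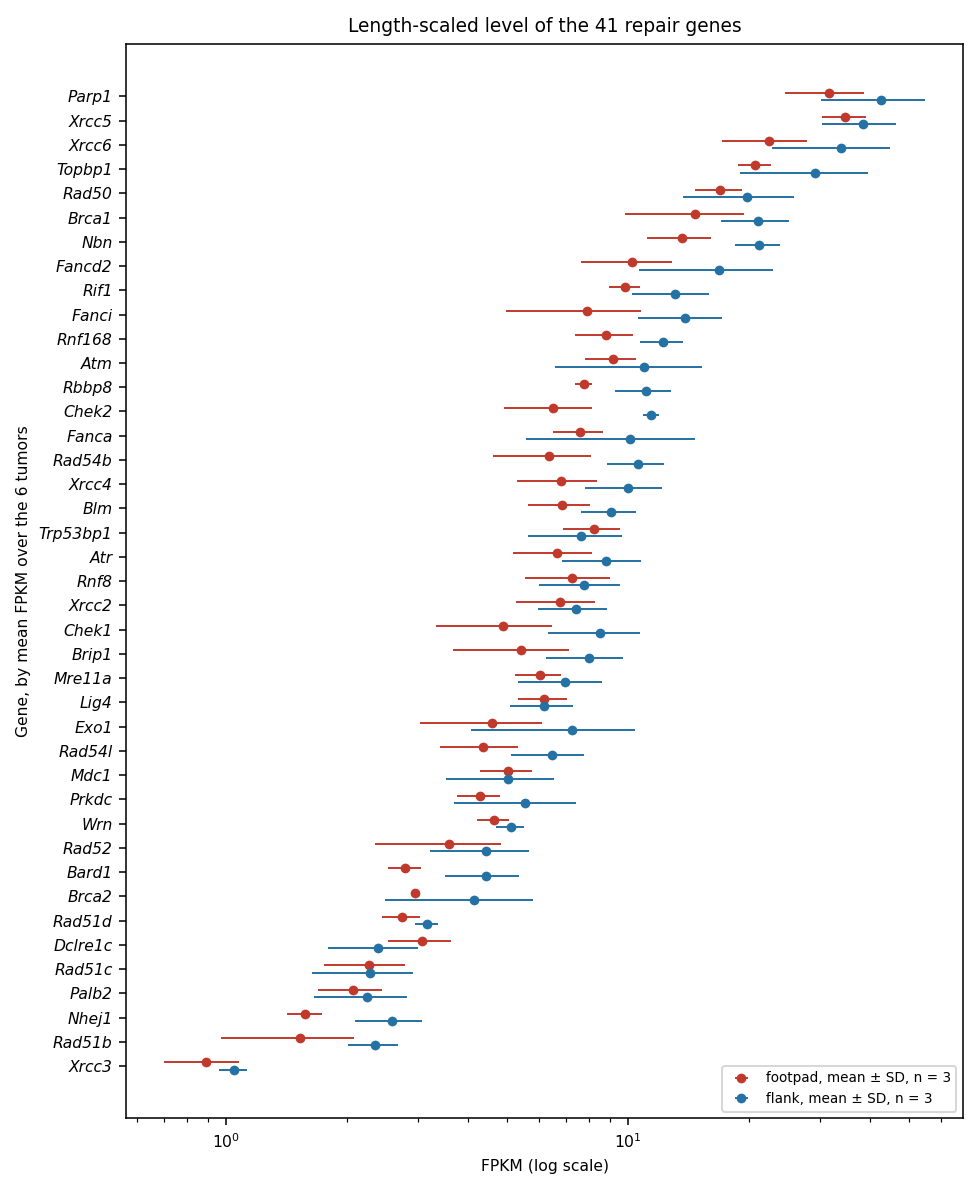
Level of the 41 repair genes in FPKM on a log axis (horizontal), ordered by the mean over all 6 tumors (vertical), with the mean and SD of 3 footpad tumors in red and of 3 flank tumors in blue. The genes span 38.3-fold from Parp1 to Xrcc3, a wider range than any difference between the sites.

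The same direction was seen in 85 other genes of these pathways, with a few calls. Of these, 65 had a log2 fold change below 0, against 50.3% of all genes, and the median was -0.22. At an edgeR adjusted p under 0.05, 3 were called lower and 0 higher, against 1.44% and 3.43% of all genes. Rpa3, the smallest subunit of the protein that coats single-stranded DNA, was at 16.2, 20.4 and 17.5 CPM in the footpad and at 44.7, 38.1 and 37.4 CPM in the flank. Every footpad tumor was far below the flank tumors, and the log2 fold change was -1.15 (SE 0.15, edgeR adjusted p = 0.014). Fancl, the ubiquitin ligase of the Fanconi anemia complex, was at 7.16, 11.3 and 8.78 CPM in the footpad and at 18.2, 17.6 and 19.9 CPM in the flank, with a log2 fold change of -1.03 (SE 0.21, edgeR adjusted p = 0.038). Usp1, which removes ubiquitin from FANCD2, was at 98.2, 125 and 132 CPM in the footpad and at 175, 195 and 215 CPM in the flank, with a log2 fold change of -0.72 (SE 0.16, edgeR adjusted p = 0.0485). The footpad tumors lay below the flank tumors for all of Rpa3, Fancl and Usp1. Fancl and Usp1 act on the FANCD2-FANCI clamp, whose own genes had log2 fold changes of -0.70 and -0.82. Other genes of that pathway in this list were spread. On the log2 scale Ube2t was at -0.77 and Fancc at -0.63, Fance and Fancg at -0.05, Faap24 at 0.22 and Slx4 at 0.53. Rpa3 kept its call in 11 of 15 alternatives, Fancl in 7 and Usp1 in 4.

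Cell-cycle genes had the same direction as the repair genes. Of 30 proliferation markers, 29 had a log2 fold change below 0, against 50.3% of all genes, with a median of -0.56. With edgeR 0 were called, against 1.44% of all genes called lower and 3.43% called higher. At an unadjusted p under 0.05, 16 were lower, against 10.5%, and DESeq2 called 12 lower, against 6.07%. Their summed level was 2564, 3600 and 3152 CPM in the footpad and 3553, 5022 and 5178 CPM in the flank, with flank 1 inside the footpad range as it was for the repair genes. Set against this sum, the repair genes had 65.7, 54.4 and 59.3 CPM per 100 CPM of proliferation markers in the footpad and 54.9, 53.1 and 49.5 in the flank. The ratio overlapped between the sites, with means of 59.8 ± 5.66 in the footpad and 52.5 ± 2.75 in the flank (SD, n = 3). The part of proliferation in the lower repair levels was not tested. Pcna, the replication clamp, was at 160, 212 and 192 CPM in the footpad and at 281, 276 and 317 CPM in the flank, a log2 fold change of -0.63 (SE 0.15, edgeR adjusted p = 0.059). Mki67, a marker of cycling cells, had a log2 fold change of only -0.16 (SE 0.22).

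**Figure D4:**
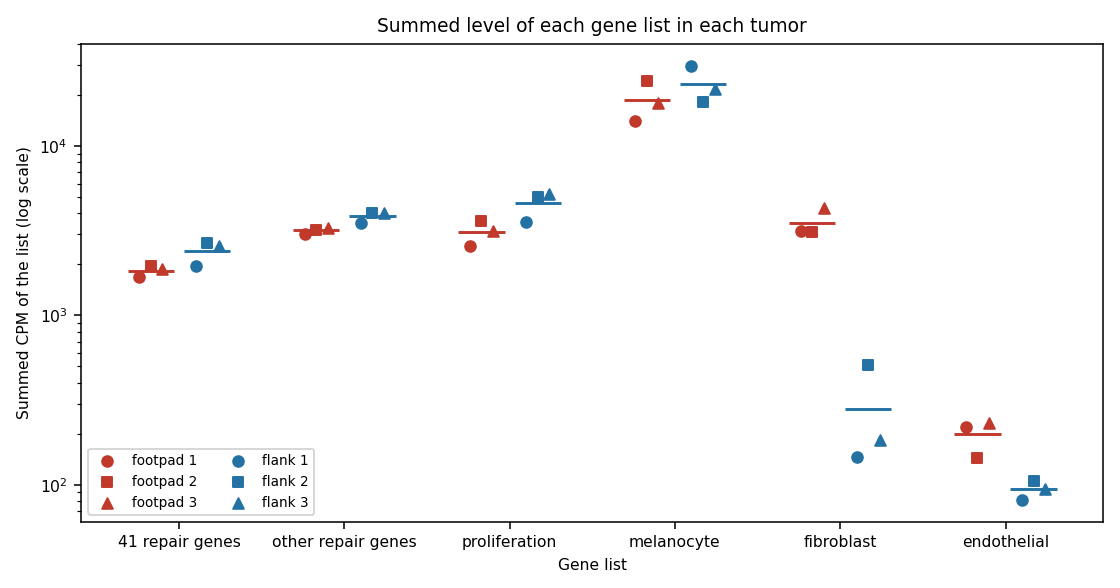
Summed CPM of each gene list in each tumor on a log axis (vertical), with the lists along the horizontal axis, footpad tumors in red, flank tumors in blue, a marker shape for each replicate and a line at the mean of 3 tumors. Within the flank the repair and proliferation sums are lowest in flank 1, whereas fibroblast markers are higher in each footpad tumor than in each flank tumor.

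Markers of host cells also differed between the sites. Over all genes, edgeR called 3.43% higher in the footpad, and 14.8% were higher at an unadjusted p under 0.05. All 12 fibroblast markers had a log2 fold change above 0 and 9 were called higher, with sums of 3084 to 4324 CPM in the footpad and 145 to 511 CPM in the flank. Of 8 endothelial markers 3 were called higher, with sums of 143 to 233 CPM against 81.1 to 105 CPM, and of 8 macrophage markers 1 was, with sums of 104 to 126 CPM against 24.5 to 104 CPM. Of the 7 neutrophil markers 0 were called, but 6 had an unadjusted p under 0.05 with higher levels in the footpad, and their sums were 376, 7.29 and 181 CPM in footpad tumors 1, 2 and 3 against 4.91 to 32.7 CPM in the flank. Of the 8 keratinocyte markers 7 could be tested and 0 were called, though 6 had an unadjusted p under 0.05. Footpad 2 held 655 CPM of them, against 8.15 to 28.8 CPM in the other footpad tumors and 3.38 to 11.3 CPM in the flank. The sites thus overlapped, with footpad 3 inside the flank range. Of the 8 skeletal muscle and 5 erythroid markers 0 were called, though footpad 2 held 1082 CPM of muscle markers. Hemoglobin took 3.39%, 0.399% and 1.77% of counts in footpad tumors 1, 2 and 3 and 2.81%, 0.372% and 0.186% in flank tumors 1, 2 and 3. It was thus highest in footpad 1 and flank 1, the tumors with the lowest repair sum of their sites, and its part in those sums was not tested. Melanocyte markers were abundant in every tumor, with sums of 14001 to 24188 CPM in the footpad and 18128 to 29809 CPM in the flank. Per 100 CPM of melanocyte markers the repair genes had 12.0, 8.10 and 10.4 CPM in the footpad and 6.55, 14.7 and 11.9 CPM in the flank. On that scale the footpad tumors lay within the flank range, and the part of host cells in the lower repair levels was not tested.

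The reads behind these values were many. Depth ran from 46529649 to 66364366 counts per tumor, of which the 41 genes took 0.161% to 0.286%, and the lowest count of any of them in a tumor was 77. Log2 fold changes also varied with an implied transcript length, the mean count of a gene over its mean FPKM. When the tested genes were split by this length into 3 equal classes, the medians were -0.13, -0.01 and 0.13 from the shortest to the longest class. Those of the repair genes were -0.50, -0.50 and -0.39. Of the 41 genes, 3 were in the shortest class, 13 in the middle and 25 in the longest. In the annotation 10 of the 41 genes overlap another protein-coding gene, namely Atr, Trp53bp1, Xrcc3, Rad54l, Rad54b, Xrcc6, Dclre1c, Fanca, Fancd2 and Fanci, so that their counts could hold reads of the neighbor.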

How the data were processed

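Total RNA of 3 footpad and 3 flank skin B16F10 tumors, grouped by their titles, was analysed. The authors made stranded libraries, trimmed reads with Trimmomatic and aligned them to mm10 with HISAT2 2.1.0 (versions and build also per the labels). The counting program, its strand setting and its treatment of shared reads are not given in the sources used here. For each gene the authors deposited raw counts of whole reads and an FPKM value, which is scaled for length and depth. Columns of other samples numbered 0.

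The fit used edgeR 4.0.16 under R 4.3.3, with TMM factors, genes kept by filterByExpr, the glmQLFit and glmQLFTest functions and Benjamini-Hochberg adjustment, with calls made at an adjusted p under 0.05. Standard errors were the log2 fold change over the root of the F statistic. With 3 tumors against 3, an exact permutation test cannot go below p = 0.1, so none was run. Alternatives were DESeq2 1.42.0, limma 3.58.1 on log2(FPKM + 1) and log2(FPKM + 0.1), other scalings, filters and thresholds, a replicate block and leaving out each tumor. The fit was also run on simulated counts, drawn independently, in which some genes were changed by known folds of 2 or more. That run cannot speak for smaller shifts, such as those of the repair genes, or for traits shared by many genes of 1 tumor. List sums and the ratio to proliferation markers were made in R. The ratio to melanocyte markers, the footpad sum as a percentage of the flank sum and the motif counts were made in Python 3.11.15.

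The members and lists were chosen with earlier results of these data known. Per-tumor values are given for members with an adjusted p under 0.05, the smallest p of each role, those whose sites did not overlap, and Atm, Atr, Chek1, Brca1, Brca2, Rad50, Xrcc5, Xrcc6, Prkdc, Trp53bp1 and Parp1. Other repair genes are given with per-tumor values at an adjusted p under 0.05, besides H2afx. Ube2t, Fancc, Fance, Fancg, Faap24 and Slx4 did not meet that threshold and were named outside this rule, to show the spread of their pathway. The ratio to melanocyte markers was added after the values were seen. Sequences and positions are from RefSeq (GRCm38.p6).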

Additional observations from a re-analysis of the deposited data

How the results depend on the processing

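The direction of the group held in every alternative run: between 35 and 38 of the 41 repair genes had a log2 fold change below 0, the median lay between -0.49 and -0.33, and 0 were called higher. The calls did not hold. The 1 repair gene called lower became 7 with DESeq2, against 6.07% of all genes. It became 7 also at an adjusted p under 0.1, for which the share of all genes was not counted. The number was 0 with library totals alone, against 1.08% of all genes, and without a filter on low counts, against 0.745%. With limma on log2(FPKM + 1) or log2(FPKM + 0.1) it was 0, against 1.18% and 1.56%. With a fold of 2 or more it was 0, against 150 of 17210 genes, and with the replicate block 0, against 0%. It ran from 0 to 4 when a tumor was left out, against 0% to 1.55% of all genes. The 3 other repair genes called became 12 with DESeq2, 1 with library totals and with limma on log2(FPKM + 1), 0 with the replicate block, and 0 to 3 without 1 tumor. The 0 proliferation markers called became 12 with DESeq2, 1 with a minimum of 10 counts in every tumor, and 0 to 3 without 1 tumor. For both lists the shares of all genes called lower are those given above for each setting. With the 10-count minimum the share was 2.04%. The 15 repair genes lower in all footpad tumors, against 14.9% of all genes, became 10 with library totals alone, against 13%. They became 8 on either FPKM scale, against 12.8%, and 15 to 30 without 1 tumor, against 17.7% to 22.4%. The 1 higher became 0 with library totals and on either FPKM scale. The labels do not pair same-numbered tumors, so the numbers were not taken as pairs. Same-numbered tumors did not deviate together from their site means (r of 0.05, -0.10 and -0.11 across genes). That cannot settle whether they share a mouse, because traits of single tumors also enter these deviations. With the block 0 of all genes were called lower.

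Of 720 values for single genes, 652 kept their direction and side of the threshold, and 23 turned sign, each near 0. Rad51c turned to 0.011 with upper-quartile scaling, 0.017 with the 10-count minimum, 0.0035 and 0.0094 with limma on log2(FPKM + 1) and log2(FPKM + 0.1), 0.0017 with the replicate block, and lay between -0.16 and 0.11 without 1 tumor. Lig4 turned to -0.0066 without the filter. Without 1 tumor, values ran from -0.14 to 0.17 for Mdc1, -0.22 to 0.044 for Rnf8, -0.091 to 0.14 for Trp53bp1, -0.24 to 0.029 for Palb2, -0.43 to 0.065 for Rad52, -0.13 to 0.066 for Lig4 and -0.35 to 0.021 for Mki67. The cause of these shifts was not tested. The lowest count of a repair gene in a tumor was 77.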
